A study of Mus musculus with 6 samples.

Results

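Teneurins and latrophilins are described here in the apical part of the mouse lower first molar, where the root forms. The members were the 4 teneurin genes (Tenm1, Tenm2, Tenm3 and Tenm4) and 3 latrophilin genes (Adgrl1, Adgrl2 and Adgrl3), taken by gene symbol from a table of 22287 genes. All 7 were present and all 7 passed the filter on low counts. RNA sequencing compared 3 mutant libraries (Gli1-CreER;Arid1a fl/fl, replicates 3, 4 and 5) with 3 control libraries (Arid1a fl/fl, replicates 2, 3 and 5). All mice were C57BL/6, received tamoxifen at postnatal day 3.5 and were sampled at postnatal day 7.5. Mutants and controls therefore shared the floxed Arid1a alleles and the drug, and differed in Gli1-CreER, a tamoxifen-dependent recombinase expressed from Gli1 in Hedgehog-responsive cells. Effects of CreER itself cannot be told apart from those of deleting Arid1a, whose product belongs to the BAF (SWI/SNF) complex that moves nucleosomes. The driver acts in cells that express Gli1 when tamoxifen is given, and in their descendants, so other cells of the tissue are not targeted. Whether teeth of several animals were pooled for a library is not stated in the labels. Errors and p-values therefore describe how far these libraries differ among themselves. Each group held libraries both with and without high Xist, so the libraries of a group did not all come from the same animal.

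Teneurins are large transmembrane proteins with a long extracellular part of EGF-like repeats, a beta-propeller and a barrel-like shell. They bind each other and bind latrophilins across cell contacts, and are best known for matching nerve fibres with their targets. Latrophilins are adhesion G protein-coupled receptors, named for latrophilin 1 (Adgrl1), a receptor of the spider toxin alpha-latrotoxin. FLRT proteins are a further set of latrophilin ligands, and the same FLRT proteins bind the netrin receptors of the Unc5 family.

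The libraries held 20453247 to 24255352 estimated counts, and levels are given as CPM, the count relative to library size after edgeR's TMM scaling. Arid1a, the targeted gene, was at 119.5, 134 and 130.5 CPM in mutant replicates 3, 4 and 5, against 209.5, 202 and 204 CPM in control replicates 2, 3 and 5. Across 17305 genes tested, 114 were higher and 208 lower in mutants (edgeR quasi-likelihood test, adjusted p under 0.05), a background of 1.86% of genes called. With scaling to library totals alone, 411 were higher and 109 lower. Markers of the labelled tissue were present in all libraries, with Dspp of dentin-forming odontoblasts at 6911 to 9983 CPM in mutants and 8586 to 9575 CPM in controls. Of 8 neuronal markers, Rbfox3, Nefl, Nefm and Elavl4 stayed below 1 CPM in all 6 libraries. The 8 summed to 62.8 to 72.8 CPM in mutants and 52.7 to 58.9 CPM in controls, and their part in the members' values was not tested. In bulk tissue, fewer cells of a type and less RNA per cell cannot be told apart.

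The member with the largest difference and the member with the highest level per length had start regions of opposite base composition. They are shown from RefSeq on GRCm38.p6 (mm10), 5′ to 3′ on the gene's strand, and both end just before the transcribed part. Capitals mark CG dinucleotides and the TATA-like word TATAAA on either strand. The first is chrX:43274787.0-43275034.0, minus strand, and the second chr8:83899848.0-83900097.0, plus strand.
Tenm1: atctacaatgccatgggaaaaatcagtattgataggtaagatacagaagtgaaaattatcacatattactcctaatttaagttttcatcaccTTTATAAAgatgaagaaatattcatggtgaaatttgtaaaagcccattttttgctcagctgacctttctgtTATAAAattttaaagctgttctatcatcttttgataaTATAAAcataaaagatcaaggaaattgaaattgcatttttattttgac
Adgrl1: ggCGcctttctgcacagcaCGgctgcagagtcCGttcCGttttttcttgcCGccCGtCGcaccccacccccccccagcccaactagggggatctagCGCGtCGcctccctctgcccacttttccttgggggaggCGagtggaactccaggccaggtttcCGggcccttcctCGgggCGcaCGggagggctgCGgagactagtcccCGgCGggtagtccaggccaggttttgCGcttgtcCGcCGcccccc
In the 250 bases before the start, Tenm1 had 0 CG dinucleotides and 27.2% G or C, whereas Adgrl1 had 21 CG dinucleotides and 68.8% G or C. Of 32841 RefSeq start windows of that length, 7.86% had 0 CG dinucleotides, and the median window had 6. The word TATAAA began 156, 87 and 50 bases before the Tenm1 start on the gene's strand and was found in 12.4% of all windows on either strand. Of the 10 RefSeq start windows of the 7 members, that of Adgrl2 and 1 of the 3 of Adgrl3 also held it. It was not found in the Adgrl1 window, and the Gli consensus GACCACCCA was in neither window (0.225% of all windows hold it on either strand). A match is a word in the sequence and not a shown binding site. The Tenm1 window lies inside the gene's GENCODE M21 span, which runs further upstream, so starts other than this RefSeq one exist.

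Tenm1, the X-linked teneurin (chromosome X, 42527866 to 43429126, minus strand), was the scarcest member and the only one called. Its level was 5.60, 9.63 and 7.29 CPM in mutant replicates 3, 4 and 5, against 2.82, 3.23 and 2.23 CPM in control replicates 2, 3 and 5. The lowest mutant library was above the highest control library, so the groups did not overlap. The mean was 7.51 ± 2.02 CPM in mutants and 2.76 ± 0.502 CPM in controls (SD, n = 3 each), a log2 fold change of 1.44 (SE 0.24) or 2.71-fold. These values rest on few reads, with 145, 222 and 166 counts in the mutant libraries and 58, 69 and 41 in the control libraries. The members were chosen by gene family with the mutant and control counts of this contrast already known, and Tenm1 was then already seen to be higher. Its change is therefore a description, and no p-value is given for it or for the other members.

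Of the 7 members, 1 was called higher and 0 lower, where 0.659% of all genes tested were called higher and 1.2% lower. The groups of 2 members did not overlap, both with mutants higher, as was so for 10.6% of all genes tested. Nothing is read from either count, because the contrast was known when the members were chosen. The median log2 fold change was 0.12 over the members and 0.01 over all genes tested. The Tenm1 call was kept without mutant replicate 3 (log2 fold change 1.61) and lost without each of the other libraries. Its log2 fold change was then 1.22 without mutant replicate 4, 1.46 without mutant replicate 5, and 1.45, 1.57 and 1.31 without control replicates 2, 3 and 5. The sign did not change in any of these fits, which have fewer samples.

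**Figure D1:**
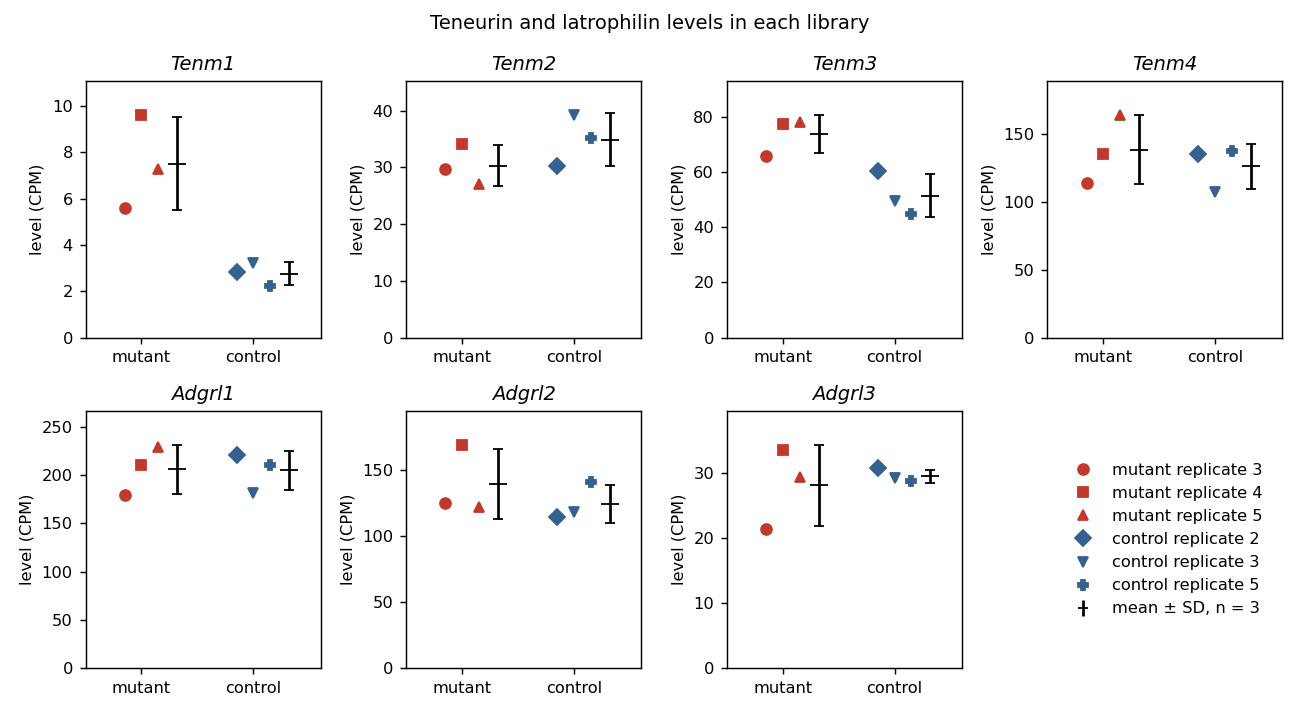
Level of each member in CPM (vertical axes, from 0) in the 3 mutant and 3 control libraries, with a symbol per library and the mean ± SD beside each group. Tenm1 and Tenm3 are the members whose groups do not overlap, with Tenm1 at 5.60 to 9.63 CPM in mutants and 2.23 to 3.23 CPM in controls.

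Tenm3, on chromosome 8 (48227682 to 48843951, minus strand), is known in mouse for wiring of the visual pathway and hippocampus. It was at 65.8, 77.4 and 78.2 CPM in mutant replicates 3, 4 and 5, against 60.2, 49.4 and 44.7 CPM in control replicates 2, 3 and 5. All mutant libraries were above all control libraries, and the closest pair was mutant replicate 3 and control replicate 2. The mean was 73.8 ± 6.93 CPM in mutants and 51.4 ± 7.91 CPM in controls (SD, n = 3 each). The log2 fold change was 0.52 (SE 0.12), or 1.43-fold with a 95% interval of 1.18 to 1.75. This interval does not allow for the choice of members with the contrast already known, and is a description too. Tenm3 was not called in the edgeR test across all genes, but was called by DESeq2 (0.52) and with library totals alone (0.72). With library totals the median over all genes was raised too, to 0.21. DESeq2 called more genes of all kinds, 359 higher and 492 lower, against 114 and 208 in the main test. In the plot of processing choices, the Tenm3 fold change stayed positive throughout.

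Marker sums of several other cell types of the root region were also higher in mutants, without overlap, as Tenm1 and Tenm3 were. The 6 dental follicle markers summed to 714, 867 and 679 CPM in mutant replicates 3, 4 and 5, against 510.1, 508 and 450 CPM in control replicates 2, 3 and 5. All 6 had an unadjusted p under 0.05, and edgeR called 2, Postn (log2 fold change 0.73, adjusted p = 0.0262) and Aldh1a2 (1.06, adjusted p = 0.0407), both higher. The 7 dental mesenchyme markers summed to 659 to 687 CPM in mutants and 577 to 611 CPM in controls. Of these, edgeR called Prrx1 higher (log2 fold change 0.72, adjusted p = 0.0299). Msx2 went the other way without overlap, at 225 ± 5.68 CPM in mutants and 242 ± 8.32 CPM in controls (SD, n = 3 each). Sums of macrophage markers (226 to 296 CPM in mutants, 167 to 205 CPM in controls) did not overlap either. Nor did those of osteoblast markers (2612 to 3063 CPM in mutants, 2163 to 2547 CPM in controls) and endothelial markers (299 to 311 CPM in mutants, 249.6 to 293 CPM in controls). Of the macrophage markers edgeR called Cd68 higher (log2 fold change 0.59, adjusted p = 0.0498). It called 0 genes of the osteoblast and endothelial lists. Among osteoblast markers only Bglap, the most abundant, had groups without overlap (mean 1573 CPM in mutants, 1104 CPM in controls). Sums of odontoblast markers (42093 to 51822 CPM in mutants, 48659.9 to 50125 CPM in controls) overlapped, as did those of pericyte and smooth muscle markers (521 to 558 CPM in mutants, 501 to 554 CPM in controls). Within the pericyte and smooth muscle list edgeR still called Myh11 higher (log2 fold change 0.92, adjusted p = 0.0499). The part of these cell types in the Tenm1 and Tenm3 values was not tested.

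**Figure D2:**
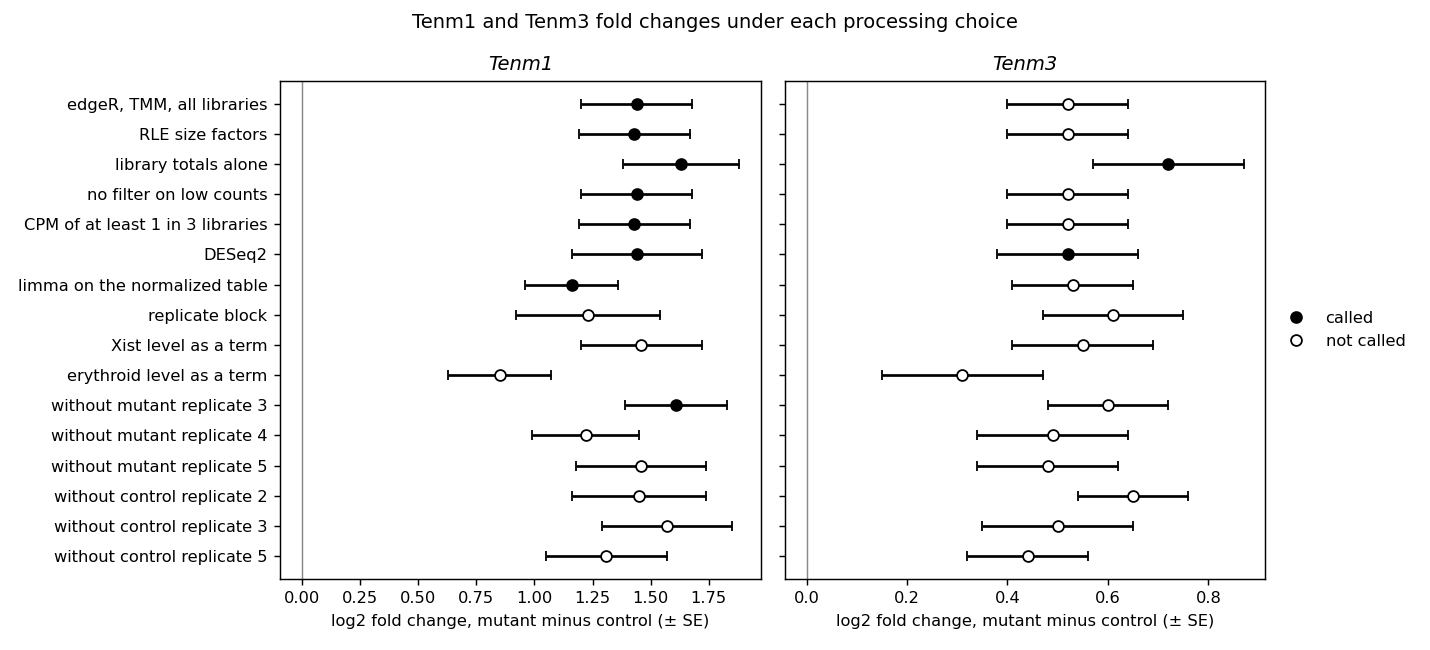
Log2 fold change (mutant minus control, horizontal axes, bars ± SE) of Tenm1 and Tenm3 under the main setting in the top row and each alternative below it. Filled points were called and open points were not. Both genes stay above 0, with Tenm1 between 0.85 and 1.63 and the smallest value of each gene in the fit with the erythroid level as a term.

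Tenm4, on chromosome 7 (96171246 to 96911093, plus strand), is needed for gastrulation and for myelination in mouse. Its level was 114, 135 and 164 CPM in mutant replicates 3, 4 and 5, against 135, 107 and 137 CPM in control replicates 2, 3 and 5. The groups overlapped almost fully, and the log2 fold change was 0.12 (SE 0.15, 95% interval -0.22 to 0.47). Tenm2, on chromosome 11 (36006656 to 37235964, minus strand), encodes the teneurin first isolated as a binding partner of latrophilin 1. It was at 29.7, 34.1 and 27.0 CPM in mutants and 30.2, 39.3 and 35.2 CPM in controls, in the same replicate order. The log2 fold change was -0.21 (SE 0.12, 95% interval -0.49 to 0.08), the lowest of the 7 members. The intervals of both genes include 0 and also differences of over 0.4 on the log2 scale, so equal levels were not shown.

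The 3 latrophilins, the receptor side of the pair, had overlapping groups. Adgrl1 (chromosome 8, 83900105 to 83941954, plus strand) was at 179, 211 and 229.6 CPM in mutant replicates 3, 4 and 5, against 221, 182 and 211 CPM in control replicates 2, 3 and 5. Its log2 fold change was 0.01 (SE 0.11, 95% interval -0.25 to 0.28), the closest to 0 among the members. Adgrl2 (chromosome 3, 148815583 to 148990555, minus strand), which in mouse hippocampus sits on the receiving side of synapses, was at 125, 169 and 122 CPM in mutants and 114, 118 and 140.4 CPM in controls. Mutant replicate 4 was the highest library, the others spanned both groups, and the log2 fold change was 0.16 (SE 0.14, 95% interval -0.17 to 0.49). Adgrl3 (chromosome 5, 81020138 to 81825133, plus strand), known in humans from genetic studies of attention deficit, was at 21.3, 33.5 and 29.4 CPM in mutants and 30.7, 29.2 and 28.8 CPM in controls. The mutant libraries held both its lowest and its highest value, with a coefficient of variation of 22.2% in mutants and 3.41% in controls. Its log2 fold change was -0.07 (SE 0.15), was 0.13 with scaling to library totals alone, and was -0.52 (SE 0.13, not called) with the mean level of 7 erythroid markers as a covariate.

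**Figure D3:**
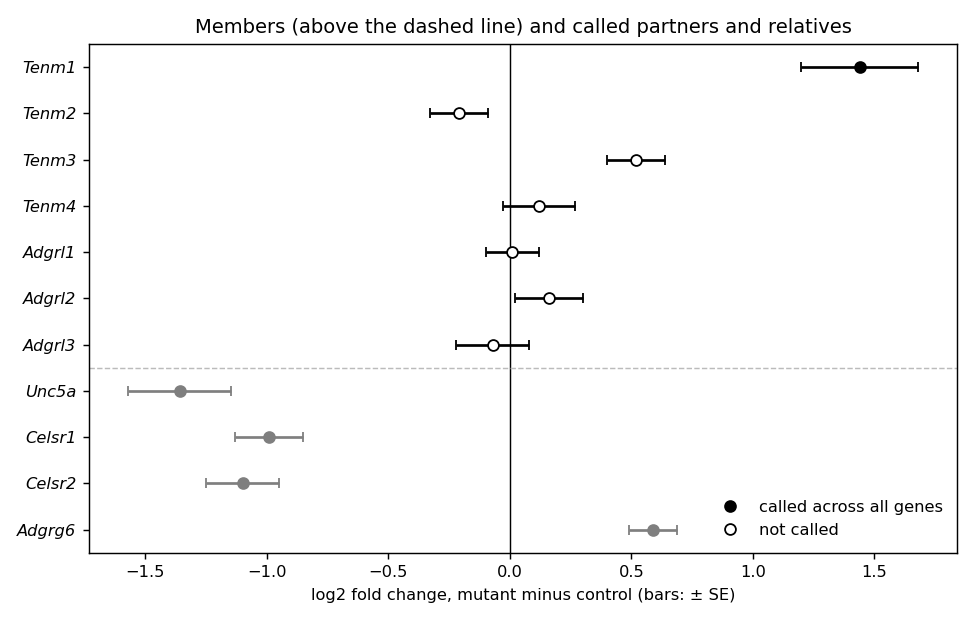
Log2 fold change (mutant minus control, horizontal axis, bars ± SE) of the 7 members, above the dashed line, and of the 4 partner and relative genes that were called, below it. Filled points were called across all genes. Tenm1 lies at 1.44 and Tenm3 at 0.52, while the 3 latrophilins lie between -0.07 and 0.16.

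Levels of different genes were compared per kilobase of exon, using the merged GENCODE M21 exons of each gene (8.59 kb for Adgrl1 to 21 kb for Tenm4). Adgrl1 was the most abundant member at 24 ± 3.0 CPM per kb in mutants and 23.8 ± 2.36 in controls (SD, n = 3 each). Adgrl2 came next at 9.76 ± 1.87 CPM per kb in mutants and 8.73 ± 1.01 in controls. Among teneurins, Tenm4 was at 6.55 ± 1.21 CPM per kb in mutants and 6.02 ± 0.786 in controls, and Tenm3 was at 7.21 ± 0.677 in mutants and 5.02 ± 0.773 in controls. These neighbours overlapped over the 6 libraries and were the only pair whose order varied, with Tenm3 above Tenm4 in mutant replicates 3 and 4 and below it in the other 4 libraries. Tenm2 (2.64 ± 0.312 in mutants, 3.04 ± 0.400 in controls), Adgrl3 (1.58 ± 0.351 in mutants, 1.66 ± 0.0567 in controls) and Tenm1 (0.423 ± 0.114 in mutants, 0.156 ± 0.0283 in controls) followed in this order in every library, with no overlap between neighbours. Tenm1 made up 2.5 ± 0.523% of the summed teneurin level per kb in mutants and 1.1 ± 0.228% in controls, the smallest share in both groups. Summed teneurin levels were 215, 256 and 277 CPM in mutant libraries and 229, 199 and 219 CPM in control libraries, with overlap. Summed latrophilin levels were 325, 413 and 381 CPM in mutant libraries and 366, 329 and 379.7 CPM in control libraries.

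**Figure D4:**
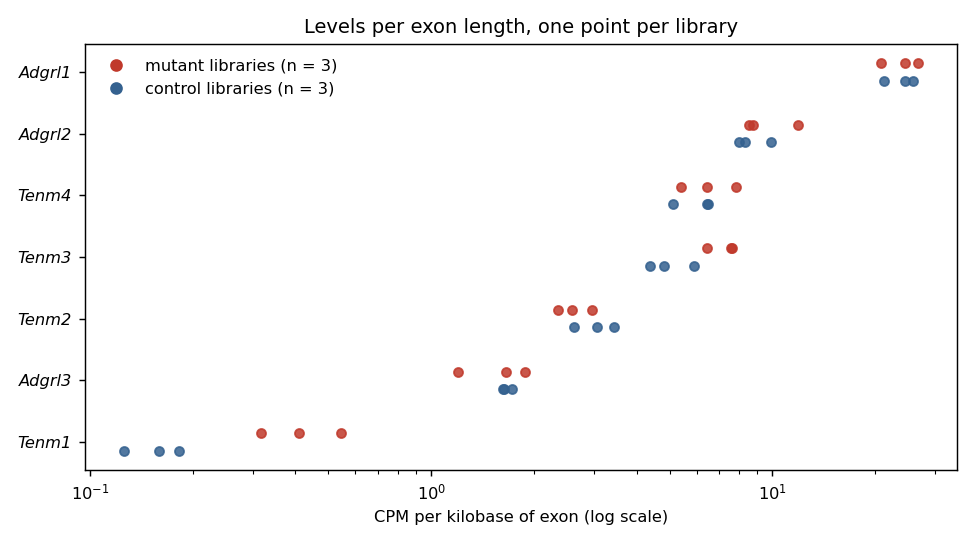
CPM per kilobase of exon (horizontal log axis) of each member in the 3 mutant (red) and 3 control (blue) libraries, ordered by mean level. Adgrl1 lies at 20.8 to 26.7 in all libraries and Tenm1 at 0.126 to 0.543, and Tenm3 and Tenm4 are the neighbours that overlap.

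The profile of Tenm1 over the 6 libraries was compared with 11285 other genes of at least 5 CPM on average, as the root mean square difference of log2(CPM + 1) centred on each gene's mean. The 3 nearest genes were Hba-a2 (difference 0.154), Alas2 (0.162) and Hbb-bs (0.169), while the median gene was at 0.63. A gene with equal values in all libraries would lie at 0.62, the size of the Tenm1 profile itself. The profile includes the difference between mutants and controls, so genes with a similar difference lie near Tenm1 for that reason alone. Adding 1 also shrinks differences more at the low level of Tenm1 than at that of the globins. Hba-a2 and Hbb-bs encode globins and Alas2 an enzyme of haem synthesis in red cell precursors. Because Hba-a2 and Hbb-bs have near-identical copies, their single values are uncertain. Hba-a2 stood at 1109.6, 2564 and 1773 CPM in mutant replicates 3, 4 and 5, against 807, 889 and 669 CPM in control replicates 2, 3 and 5. None of the 3 genes was called in the test across all genes (adjusted p = 0.0815 for Hba-a2, 0.0856 for Alas2 and 0.0874 for Hbb-bs).

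Of the 7 erythroid markers, 6 passed the filter and 0 were called by edgeR (5 had an unadjusted p under 0.05), while DESeq2 called 4, all higher. Their summed level was 2366 to 5510.4 CPM in mutants and 1423 to 1948 CPM in controls. As a mean of log2(CPM + 1), it was 5.88, 7.11 and 6.73 in mutant replicates 3, 4 and 5, against 5.76, 5.91 and 5.46 in control replicates 2, 3 and 5. Mutant replicate 3 thus lay within the control range of this mean, while its Tenm1 level of 5.60 CPM was above the highest control level of 3.23 CPM. In a fit with the erythroid mean as a covariate, chosen once the values were known, the Tenm1 log2 fold change was 0.85 (SE 0.22) and the call was lost. That of Tenm3 was 0.31 (SE 0.16).

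Sex-linked genes were given beside Tenm1 because it lies on the X chromosome. Xist, expressed from the inactive X chromosome of females, was at 799, 0.13 and 1298 CPM in mutant replicates 3, 4 and 5, against 0.632, 1019 and 2.39 CPM in control replicates 2, 3 and 5. The Y-linked Ddx3y was at 0, 54.1 and 0.176 CPM in the same mutant libraries and 52.3, 0 and 62.6 CPM in the control libraries. Within the libraries with high Xist, Tenm1 was at 5.60 and 7.29 CPM in mutants and 3.23 CPM in the control. Within those with low Xist, Tenm1 was at 9.63 CPM in the mutant and 2.82 and 2.23 CPM in controls. Because no mutant library overlaps a control library, any split of the libraries gives this order, and each split here has a group of 1 library, so the part of sex was not tested by it. With the Xist level as a term the log2 fold change was 1.46 (SE 0.26), and the call was lost in this fit with fewer degrees of freedom.

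**Figure D5:**
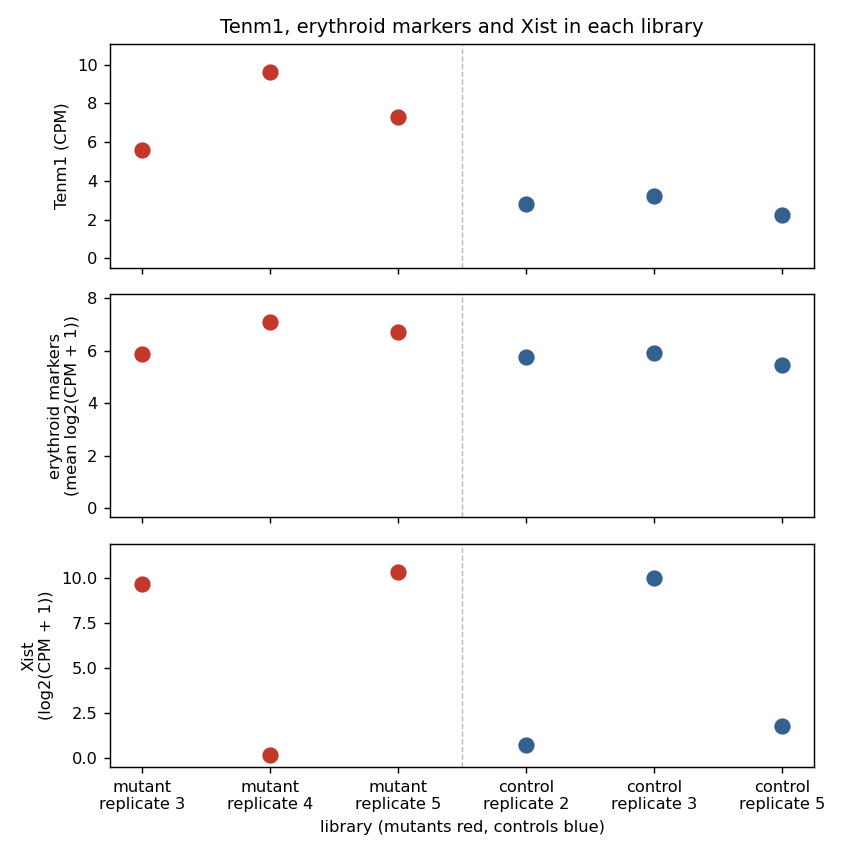
Tenm1 level in CPM (top), mean log2(CPM + 1) of the 7 erythroid markers (middle) and Xist as log2(CPM + 1) (bottom) in each library, with mutants in red left of the dashed line and controls in blue. Mutant replicate 3 has an erythroid mean of 5.88, within the 5.46 to 5.91 of controls, and a Tenm1 level above all controls, and Xist is high in mutant replicates 3 and 5 and control replicate 3.

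Among 18 genes for known binding partners of teneurins and latrophilins, 1 fell, 0 rose and 17 did not pass. Over all genes tested, 1.2% fell and 0.659% rose. The median log2 fold change was 0.04 for the partners against 0.01 for all genes tested. The faller was Unc5a, a netrin receptor gene of the Unc5 family. It was at 1.08, 1.13 and 1.05 CPM in mutant libraries, against 2.77, 2.53 and 3.10 CPM in control libraries, and the groups did not overlap. The log2 fold change was -1.36 (SE 0.21, adjusted p = 0.029, edgeR), on only 24 to 28 counts in mutants and 54 to 57 in controls. The call was lost whichever library was left out (adjusted p 0.0575 without mutant replicate 3, 0.099 without mutant replicate 4, 0.0851 without mutant replicate 5, and 0.0876, 0.103 and 0.0967 without control replicates 2, 3 and 5). The far more abundant Unc5b did not pass, with 428 ± 33.3 CPM in mutants and 484 ± 29.4 CPM in controls (SD, n = 3 each, adjusted p = 0.419).

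The FLRT ligands of latrophilins did not pass. Flrt3 was at 64.7, 68.2 and 88.9 CPM in mutant libraries, against 64.8, 60.1 and 44.0 CPM in control libraries (log2 fold change 0.39, adjusted p = 0.333). Flrt2 was at 84.8 ± 10.3 CPM in mutants and 70.1 ± 15.7 CPM in controls, and Flrt1 at 6.68 ± 0.613 CPM in mutants and 6.56 ± 0.935 CPM in controls (SD, n = 3 each). Flrt1 and Flrt2 were singled out after their values were seen, for their role as ligands. Shank3, a scaffold gene whose family binds the tail of latrophilins, was at 27.8 ± 0.754 CPM in mutants and 22.5 ± 3.16 CPM in controls, and did not pass (adjusted p = 0.235).

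Of 12 genes for G proteins and the exchange factors they act on, 0 were called by edgeR, against 1.86% of all genes tested. DESeq2 called 1, 1 had an unadjusted p under 0.05 in edgeR, and the median log2 fold change was -0.07. The gene nearest to a call was Arhgef11, an exchange factor that acts downstream of G12 and G13 proteins. It was at 100.5, 113 and 95.5 CPM in mutant libraries, against 144, 130.1 and 152 CPM in control libraries, without overlap (log2 fold change -0.46, SE 0.09, adjusted p = 0.0538). It was called by DESeq2 (adjusted p = 0.00139), with limma (0.0496) and with a stricter filter on low counts (0.0478), and over all alternatives its adjusted p ran from 0.00139 to 0.299. Gna13, Gnaq and Gnao1, which encode G protein alpha subunits, had log2 fold changes of 0.13, -0.11 and -0.18 (adjusted p = 0.455, 0.487 and 0.573), those of Gnaq and Gnao1 turning to 0.10 and 0.02 with library totals alone.

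Of 27 other adhesion G protein-coupled receptor genes, 23 were in the table and 19 were tested. Of these 19, 1 rose, 2 fell and 16 did not pass (median log2 fold change 0.04), where 0.659% of all genes tested rose and 1.2% fell. The fallers were Celsr1 and Celsr2, atypical cadherins of planar cell polarity. Celsr1 was at 163, 230.2 and 197 CPM in mutant libraries, against 368, 365 and 439.8 CPM in control libraries. Its log2 fold change was -0.99 (SE 0.14, adjusted p = 0.0227, edgeR), and its groups were far apart. Celsr2 was at 49.4, 48.8 and 40.7 CPM in mutant libraries, against 86.4, 88.2 and 123 CPM in control libraries (log2 fold change -1.10, SE 0.15, adjusted p = 0.0227). The Celsr1 call was lost without mutant replicate 5 (0.0621) or control replicate 2 (0.0668), 3 (0.076) or 5 (0.0782). The Celsr2 call was lost without mutant replicate 4 (0.0744) or 5 (0.0585) or control replicate 2 (0.0532) or 3 (0.0622).

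The 8 dental epithelial markers summed to 68104 to 113355 CPM in mutants and 178736 to 277842 CPM in controls, of which the enamel protein gene Amelx was the 1 called by edgeR, lower, and 3 were called by DESeq2. Krt14 was at 972, 744 and 512 CPM in mutant libraries and 628, 809 and 744 CPM in control libraries, with overlap. The part of epithelial content in the Celsr values was not tested. The riser was Adgrg6, a receptor that Schwann cells need for myelination, at 25.9, 32.1 and 27.0 CPM in mutant libraries, against 19.0, 18.3 and 19.1 CPM in control libraries. Its log2 fold change was 0.59 (SE 0.10, adjusted p = 0.0363, edgeR). The call was kept without mutant replicate 3 and lost without mutant replicate 4 (0.106) or 5 (0.0813) or control replicate 2 (0.104), 3 (0.145) or 5 (0.105). Of the 8 Schwann markers, 0 were called by edgeR (5 had an unadjusted p under 0.05), while DESeq2 called 3, all higher. Mbp, among those 5, was lower in mutants without overlap, at 6.97 ± 0.963 CPM against 9.75 ± 0.296 CPM in controls (log2 fold change -0.48). The 8 Schwann markers summed to 36.1 to 44.7 CPM in mutants and 32.3 to 37.1 CPM in controls, and their part in the Adgrg6 value was not tested. Adgra2, a co-receptor of Wnt signalling in vessels, was at 159 ± 16.9 CPM in mutants and 130.3 ± 14.8 CPM in controls and did not pass (adjusted p = 0.269).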

How the data were processed

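Apical molar RNA was sequenced as single-end reads on a NextSeq500, per the labels' protocols. Groups come from the genotype label and replicate numbers from the sample titles. The authors deposited expected counts, that is, estimated read counts per gene that need not be whole (53.8% of values were whole within 0.001), for 22287 genes. The submitters' processing notes name STAR 2.6.1d, Partek and the mm10 build. The deposited file is named for expectation-maximisation, which can share reads among similar genes, and whether strand was used in counting is not stated. Of genes overlapping members, 7 were in the table, all on the opposite strand, with at most 71.5 counts in a library. The authors also deposited a normalized signal, equal to the count plus 1 times a factor per library, used for 1 alternative.

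Counts were rounded, filtered with filterByExpr (17305 genes kept) and scaled by TMM (factors 0.872 to 1.11). Mutants were compared with controls by edgeR's quasi-likelihood test (edgeR 4.0.16, R 4.3.3), adjusted by the Benjamini-Hochberg method over all genes, and genes with an adjusted p under 0.05 were called. Each log2 fold change gives mutant over control, with its SE taken as its size over the root of the F statistic. All 22287 genes matched GENCODE M21 by name, chromosome and start. RefSeq start windows were available for all 7 members. Genes outside the members were named by rule: those called in each list, filled up to the 4 with the smallest p, and the 3 nearest profiles of each called member. Members and lists were chosen with earlier results of these data known. Scripts were tested on simulated data. Alternatives were RLE factors, library totals, other filters, DESeq2 1.42.0, limma 3.58.1 on log2(signal + 1), a replicate block, Xist or erythroid level as a term, and leaving out each library.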

Additional observations from a re-analysis of the deposited data

How the results depend on the processing

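Tenm1 was higher in mutants in all 15 alternatives and Tenm3 likewise. The Tenm1 log2 fold change of 1.44 was 1.22 to 1.61 when single libraries were left out. Its call was lost with the replicate block (1.23), with the Xist term (1.46) and with the erythroid term (0.85). Tenm3 (0.52) was called with library totals (0.72) and DESeq2 (0.52). Members that were not called could change sign. Without single libraries Tenm4 ran from -0.02 to 0.24, Adgrl1 from -0.07 to 0.10, Adgrl2 from -0.01 to 0.26 and Adgrl3 from -0.22 to 0.09. Adgrl2 was -0.06 with the replicate block, Adgrl3 was 0.13 with library totals, and with the erythroid term Tenm4 was -0.03, Adgrl1 -0.14, Adgrl2 -0.01 and Adgrl3 -0.52. Arid1a was -0.71 to -0.64 without single libraries, losing its call without control replicate 2 or 3 (-0.66 and -0.69), and lost it with the replicate block (-0.70) and the erythroid term (-0.78). With library totals, where the all-gene median was 0.21 (0.01 with TMM), Gnao1 was 0.02, Gnaq 0.10 and Unc5b 0.03.

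Counts of genes called moved more. Without single libraries, 1 to 105 were higher and 10 to 138 lower, with the lowest numbers without control replicate 2 and the highest without mutant replicate 3, and 0 to 3 of the partner and relative genes were called. Other numbers of higher and lower genes were 411 and 109 with library totals, 359 and 492 with DESeq2, 19 and 71 with the replicate block, 26 and 45 with the Xist term, and 1 and 7 with the erythroid term. Called partners and relatives, 4 in the main setting, were then 1 with the replicate block, 1 with the Xist term and 0 with the erythroid term. Such fits have fewer degrees of freedom; beyond this the cause was not tested. The labels' protocols mention pairs of samples. Replicate numbers 3 and 5 occur in both groups, and the deviations of these pairs correlated at 0.267 and -0.144 across genes. The numbers were therefore not taken to pair libraries, but these values cannot decide whether libraries were paired. The erythroid term was added after the data were seen. Depth limits Tenm1 (41 to 222 counts per library) and Unc5a (24 to 57 counts).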

Other observations

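Most members are very long genes. Tenm2 spans 1229 kb, Tenm1 901 kb, Adgrl3 805 kb, Tenm4 739.8 kb and Tenm3 616 kb of genome, against a median of 18.7 kb for all genes tested, while Adgrl1 spans 41.9 kb. Among the 187 tested genes that span at least 500 kb, these 5 included, the median log2 fold change was 0.13, against 0.01 for all genes tested. Of the 187 genes, 7 were called (3.74%, against 1.86% of all genes tested), 3 higher and 4 lower. No test was made of this difference.

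Start regions of the other members ranged widely in base composition. The 250 bases before the RefSeq start held 2 CG dinucleotides for Tenm2, 3 for Adgrl2 and 8 for Tenm3. Tenm4 has RefSeq starts with 4 and 8 CG dinucleotides, and Adgrl3 has starts with 36, 18 and 18. Some windows reach into annotated exons of their own gene. A GENCODE M21 exon begins after 98 bases of the Adgrl2 window and 218 of that of Tenm3. In each Adgrl3 window the first base already lies in an exon. The windows of Tenm2, Tenm3, Adgrl2 and the second Tenm4 start lie inside the gene's span, like that of Tenm1. The word TATAAA was in the windows of Tenm1, Adgrl2 and the second Adgrl3 start. Tenm3, the other member without overlap between groups, held 8 CG dinucleotides in the full window and 6 before the annotated exon. The median full window held 6, and that of Tenm1 held 0.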
